A study of Capra hircus with 6 samples.

Results

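Actin filaments, the myosin that pulls on them, and the proteins that bundle, stabilize, and anchor them make up the contractile apparatus of the cell. In fibroblast-like cells such as the dermal papilla cells (DPCs) of the hair follicle, non-muscle myosin works on actin stress fibers that end at focal adhesions. Smooth muscle isoforms are added in myofibroblasts, contractile fibroblasts in which alpha-smooth muscle actin is the classical marker. Many of these genes carry binding sites for serum response factor (SRF), whose coactivators MRTFA and MRTFB are held by free actin monomers. Alpha-smooth muscle actin, the product of ACTA2, is also one of the proteins by which cultured DPCs are identified.

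The 39 genes described here are a fixed list of actins, actin-binding proteins, myosins, focal adhesion proteins, intermediate filament proteins, and their transcription regulators. They were found in the deposited count table by gene identifier, which gave 39 entries. A further 2 entries carried a listed symbol only in the table's annotation, LOC102174891 (annotated as MYL9) and LOC102168967 (annotated as Myl6, described as a myosin light chain 6-like gene). The resulting 41 entries stood among 15944 genes, and 40 of them were among the 12588 genes with enough counts to be tested. The gene not tested was MYOCD, the gene of the smooth muscle coactivator myocardin, with 5, 2, and 3 counts in the control libraries and 2, 1, and 8 counts in the ATRA libraries.

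RNA-seq was performed on DPCs of secondary hair follicles (SHF-DPCs) from the skin of adult cashmere goats (Capra hircus), wild-type and cultured over several passages. The control group (3 libraries) received culture medium alone, and the ATRA-treated group (3 libraries) received all-trans retinoic acid (ATRA), the vitamin A metabolite that activates retinoic acid receptors, at 0.1 mM for 24 h. The cells were isolated from 3 separate animals, but the labels do not tie a library to an animal, so p-values here measure the spread between these libraries. Library totals ranged from 35532339 to 38012771 counts, and all 6 libraries carried the same batch label. Levels are given as normalized CPM, counts per gene scaled to a common library total with edgeR's TMM factors, which were 0.842 to 0.851 for the control libraries and 1.16 to 1.20 for the ATRA libraries. With library size alone in place of TMM, the log₂ fold change (log₂FC, ATRA against control) at the median of all genes moved from 0.04 to 0.52. The median of the contractile genes minus that of all genes was -2.71 with either scaling. A change of scaling moves all genes by nearly the same amount, so this difference is no test of the scaling.

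Of the DPC markers examined as a check of the label, 8 of 12 were expressed at a testable level. Of these 8, 7 fell with ATRA (edgeR, adjusted p under 0.05), against 38.7% of all tested genes. LEF1 fell least of the 7 (log₂FC -0.54), by little more than the shift that library size alone gives. All 12 summed to 2837 to 2975 normalized CPM in the control libraries and 256 to 287 in the ATRA libraries. Most of the control sum came from VCAN and PDGFRA, with means of 1641 and 865 normalized CPM. SOX2 was not tested and had 5, 0, and 2 counts without ATRA and 10, 16, and 9 with it. PROM1, which encodes the CD133 marker stained in the study, had 1, 0, and 0 counts in the control libraries and 0 in every ATRA library, and ALPL and CORIN had no more than 1 count in any library. Among markers of vascular smooth muscle cells and pericytes outside the list of contractile genes, RGS5, MCAM, KCNJ8, ABCC9, and PLN had at most 14 counts in any library, whereas NOTCH3, PDGFRB, CSPG4, SYNPO2, and SMTN were expressed. All 10 of these markers summed to 973 to 1025 normalized CPM in the control libraries and 248 to 265 in the ATRA libraries. Of the 5 tested, 5 were lower, with PDGFRB (log₂FC -0.44) by less than the shift that library size alone gives. The part of such cells in the results below was not tested.

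The contractile genes were lower in the ATRA-treated group with few exceptions. By edgeR's quasi-likelihood test, 38 of the 40 tested genes were lower at an adjusted p under 0.05, against 38.7% of all 12588 tested genes. No gene of the list was higher by edgeR with TMM, at the adjusted or the unadjusted threshold, or by DESeq2 or R's t.test. By edgeR with TMM, 40.9% of all tested genes were higher at an adjusted p under 0.05. With library size alone, edgeR called 1 gene of the list higher (CNN3, log₂FC 0.39, edgeR adjusted p = 2.74e-06). With a log₂FC below -1 and an unadjusted p under 0.05, 37 of the 40 genes were lower, against 17.3% of all tested genes. A fall of more than 3 on the log₂ scale, with an adjusted p under 0.05, was found for 18 of the 40 and for 4.6% of all tested genes. Every ATRA library lay below every control library for 39 of the 40, against 39% of all tested genes. The median log₂FC of the 40 genes was -2.67, with quartiles of -3.64 and -1.69, and the median of all tested genes was 0.04. Most of these genes had high counts, so the share was also set beside that of the 2009 tested genes with a mean of at least 100 normalized CPM, of which 23% were lower by more than 2-fold. Of the 32 contractile genes above that level, 30 were lower by more than 2-fold. In bulk RNA, fewer cells of a type and less RNA per cell cannot be told apart.

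**Figure D1:**
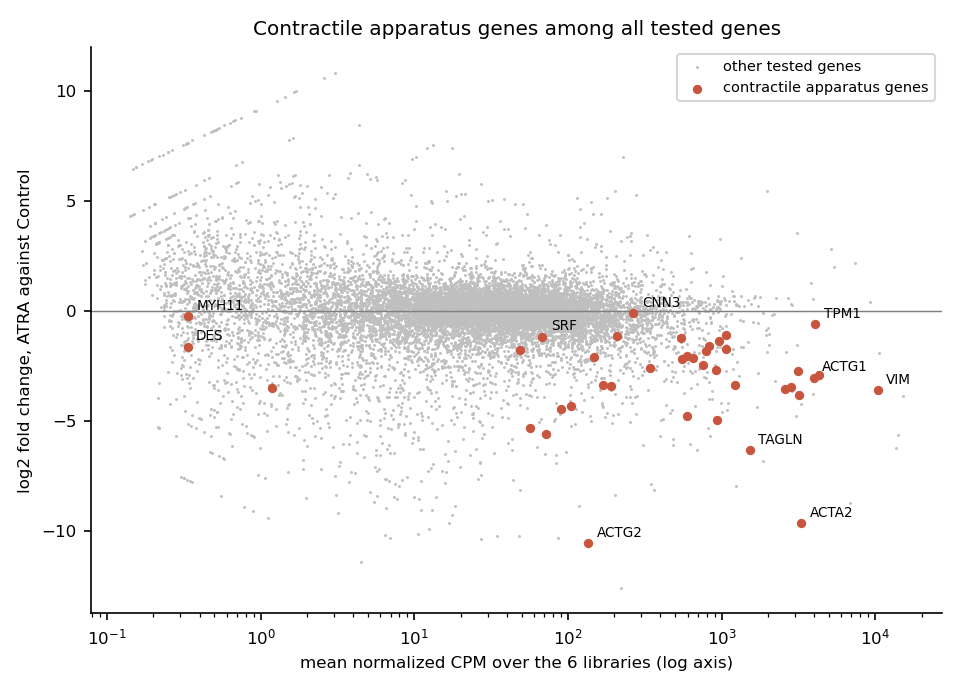
Each point is 1 of the 12588 tested genes, with its mean normalized CPM over the 6 libraries on a log axis and its log₂FC (ATRA against control) on the vertical axis. The 40 contractile genes (red) run from CNN3 at -0.09 to ACTG2 at -10.54, and most stand at the high-count end. The signs of CNN3 and MYH11 turn with library size alone.

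The listed genes together took 7.95%, 7.56%, and 7.74% of the counts of the control libraries and 1.65%, 1.64%, and 1.66% of the counts of the ATRA libraries. Their mean share was thus 7.75% ± 0.196 without ATRA and 1.65% ± 0.0110 with ATRA (SD, n = 3 each), and the groups did not overlap (p = 0.1 by an exact, two-sided permutation over libraries, which is the lowest value possible with 3 against 3). Without VIM, ACTB, and ACTG1, the share was 5.06% ± 0.108 and 1.26% ± 0.00749 (SD, n = 3 each). VIM, the gene of the fibroblast intermediate filament protein vimentin, alone held 1.62% ± 0.0645 and 0.188% ± 0.00180 of the counts (SD, n = 3 each). ACTA2 alone held 0.557% ± 0.0358 and 0.000987% ± 9.19e-05 (SD, n = 3 each).

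**Figure D2:**
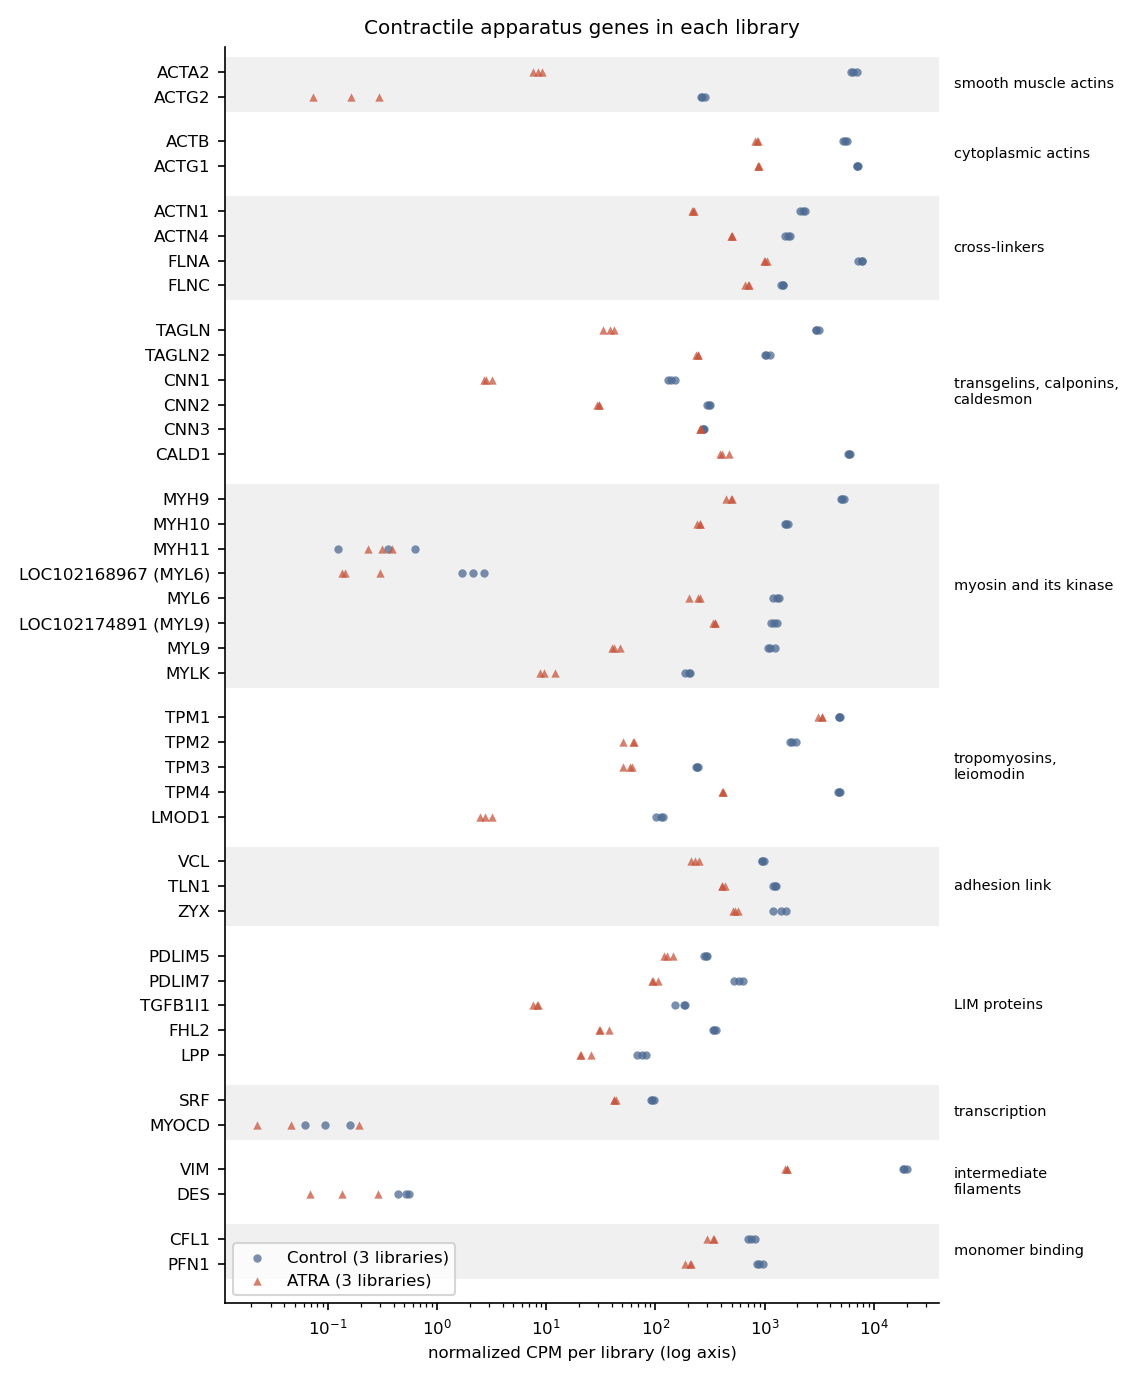
Normalized CPM (log axis) of each contractile gene in the 3 control libraries (blue circles) and the 3 ATRA libraries (red triangles), grouped by role. The groups are separated for ACTA2, TAGLN, and CNN1 by more than 10-fold, lie close together for TPM1 and CNN3, and overlap for MYH11 and MYOCD.

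The smooth muscle actins showed the widest separation within the list. ACTA2, encoding the alpha-smooth muscle actin of myofibroblasts and vascular smooth muscle, had 7098, 6206, and 6442 normalized CPM in the control libraries and 9.18, 7.53, and 8.39 normalized CPM in the ATRA libraries. The raw counts behind these levels were 220329, 200752, and 206944 without ATRA and 397, 332, and 347 with it. The groups were far apart, and the gene was still counted well above the floor in every ATRA library. Its mean was 6582 ± 462 normalized CPM without ATRA and 8.37 ± 0.829 with ATRA (SD, n = 3 each), a 787-fold difference (log₂FC -9.62 ± 0.102 SE, edgeR adjusted p = 1.19e-21). ACTG2, encoding the gamma-smooth muscle actin of visceral muscle, had 8877, 8424, and 8607 counts in the control libraries and 7, 13, and 3 counts in the ATRA libraries. These corresponded to 286, 260.4, and 268 normalized CPM and 0.162, 0.295, and 0.0725 normalized CPM, and the 2 groups lay far apart. The fitted difference was the largest in the list (log₂FC -10.54 ± 0.138 SE, edgeR adjusted p = 9.41e-21), but its size depended on the few counts with ATRA and on the method, with a range of -11.13 to -7.86 over the alternatives run.

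The cytoplasmic actins, which build the filaments of every cell and are often used as reference genes, were lower too, by a smaller factor. ACTB, the gene of beta-actin, had 5715, 5202, and 5464 normalized CPM in the control libraries and 859.9, 813, and 864 normalized CPM in the ATRA libraries (log₂FC -2.69 ± 0.0636 SE, edgeR adjusted p = 1.73e-17). ACTG1, the gene of cytoplasmic gamma-actin, had 7230, 7008, and 7010.3 normalized CPM without ATRA and 869, 868, and 898 with it (log₂FC -3.01 ± 0.0608 SE, edgeR adjusted p = 2.05e-18). Neither gene overlapped between the groups, and their levels with ATRA were 6.46-fold and 8.07-fold lower. Actin genes are close in sequence, and how the counting treated reads shared between them is not given in the sources used here, so each pair was also summed. ACTA2 and ACTG2 together differed by 802-fold (log₂FC -9.65 ± 0.1004 SE, edgeR adjusted p = 7.98e-22). ACTB and ACTG1 together differed by 7.28-fold (log₂FC -2.86 ± 0.0621 SE, edgeR adjusted p = 5.18e-18). A sum gives the direction of the pair and not of each gene, so the values of single genes within a pair, ACTG2 above all, are uncertain. ACTC1, encoding cardiac alpha-actin, is not a gene of the list. It was looked at after its values were seen, as a close relative of ACTA2 with counts. It was left out of the sums and may share reads with the smooth muscle actins. It had 45162, 43167, and 42315 counts without ATRA and 794, 747, and 694 counts with it (log₂FC -6.30 ± 0.0776 SE, edgeR adjusted p = 4.84e-21). ACTA1, the skeletal muscle actin, had at most 8 counts in any library.

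Because the actins fell by different factors, the composition of the actin reads differed between the groups. Of the counts of ACTA2, ACTG2, ACTB, and ACTG1, which are read shares without correction for transcript length, ACTA2 took 34.9%, 33.2%, and 33.6% in the control libraries and 0.528%, 0.446%, and 0.474% in the ATRA libraries. ACTB took 28.1% ± 0.316 and 48.8% ± 0.654 (SD, n = 3 each). ACTG1 took 36.5% ± 0.979 and 50.7% ± 0.692 (SD, n = 3 each). The reads of these listed actins were thus split over smooth muscle and cytoplasmic isoforms without ATRA and were almost entirely cytoplasmic with it. ACTC1 was not part of these shares, with 45162, 43167, and 42315 counts without ATRA and 794, 747, and 694 with it. For this and every other family share given below, the groups did not overlap and the exact, two-sided permutation test gave p = 0.1 (0.1 after Benjamini-Hochberg adjustment over the 23 shares), which is the smallest p the design allows. Differences in fold between genes of a family were not tested other than through these shares.

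**Figure D3:**
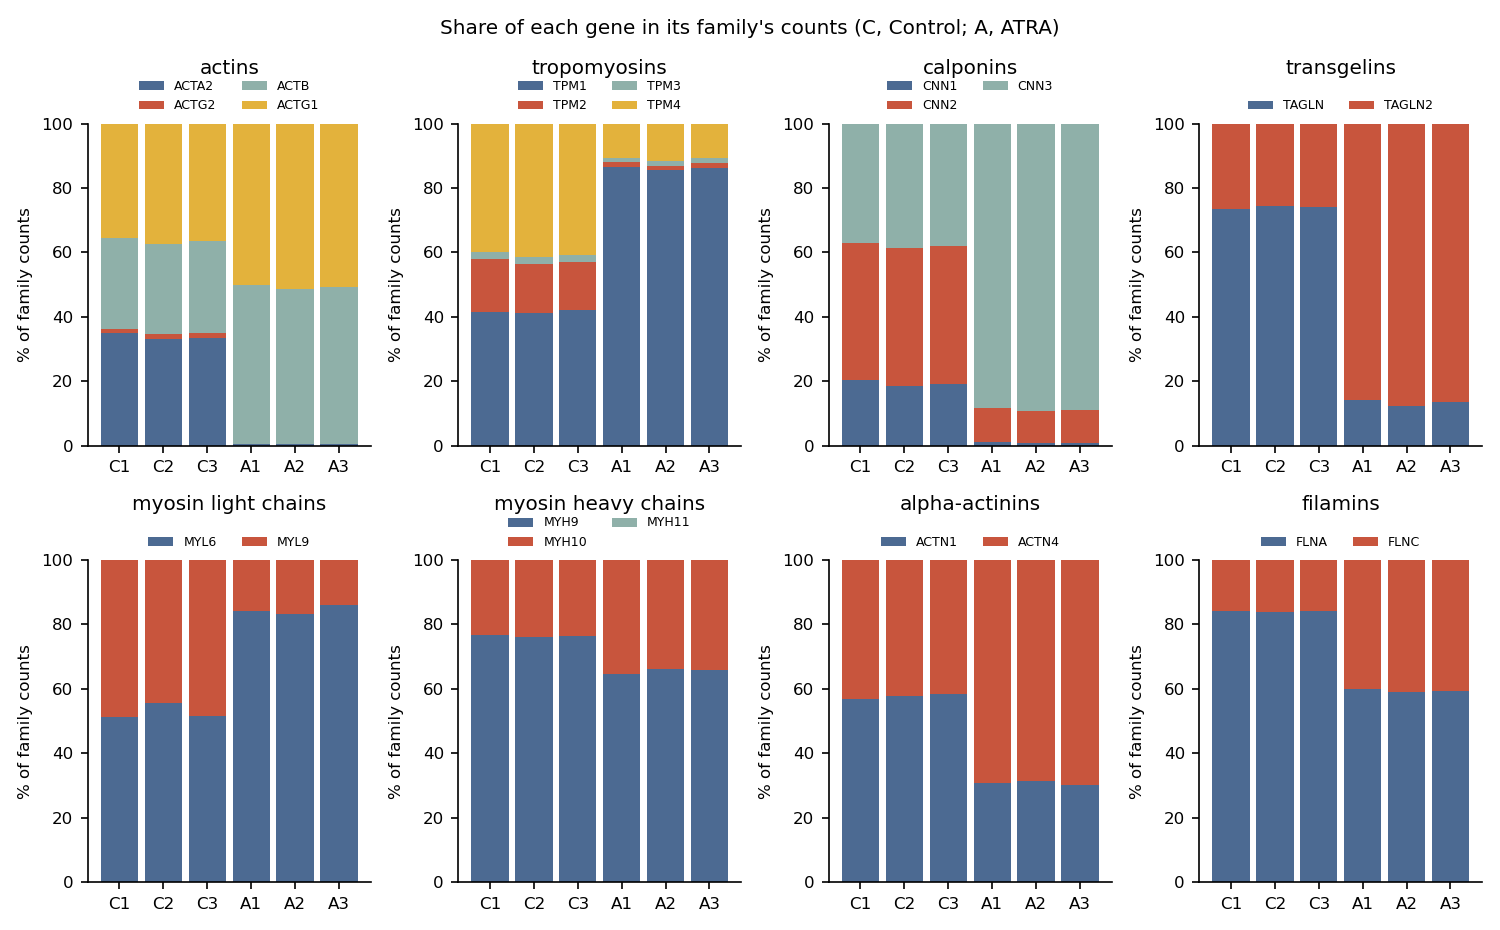
Stacked bars give the share of each gene in the counts of its family (percent, vertical axis) in control libraries C1 to C3 and ATRA libraries A1 to A3. ACTA2, TPM2, TPM4, CNN1, CNN2, TAGLN, MYL9, ACTN1, and FLNA held smaller shares in all 3 ATRA libraries than in all 3 control libraries, and TPM1, CNN3, TAGLN2, MYL6, ACTN4, and FLNC held larger ones. The light chain shares leave out LOC102168967 and LOC102174891. The latter, annotated as MYL9, had 15369, 14913, and 14446 counts with ATRA, against 2031, 1777, and 1734 for MYL9. The shift from MYL9 to MYL6 therefore holds for these 2 entries only, and regulatory chains together were not tested.

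Transgelin, calponins, and caldesmon bind along actin filaments, and the smooth muscle members among them are markers of differentiated smooth muscle. TAGLN, encoding transgelin (SM22), had 3131, 2954, and 2965 normalized CPM in the control libraries and 41.5, 33.4, and 38.6 normalized CPM in the ATRA libraries, a 79.8-fold difference (log₂FC -6.32 ± 0.0878 SE, edgeR adjusted p = 1.84e-20). TAGLN2, the broadly expressed relative, had 1131, 1017, and 1030.5 normalized CPM without ATRA and 248, 238, and 248 with it (log₂FC -2.11 ± 0.0614 SE, edgeR adjusted p = 3.93e-16). In both genes the groups were apart. Of the counts of the pair, TAGLN held 74.0% ± 0.487 without ATRA and 13.4% ± 1.03 with ATRA (SD, n = 3 each). CALD1, encoding caldesmon, which inhibits the actomyosin ATPase, had 5761, 6032, and 5983 normalized CPM without ATRA and 391, 474, and 412 with it (log₂FC -3.80 ± 0.0765 SE, edgeR adjusted p = 1.95e-18).

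Of the 3 calponins, CNN1 and CNN2 fell and CNN3 did not pass the test. CNN1, the smooth muscle calponin, had 153, 130.3, and 139.6 normalized CPM in the control libraries and 3.22, 2.72, and 2.80 normalized CPM in the ATRA libraries (log₂FC -5.59 ± 0.0934 SE, edgeR adjusted p = 1.58e-19). CNN2, found in smooth muscle and in non-muscle cells, had 319, 299, and 308 normalized CPM without ATRA and 30.7, 29.0, and 30.2 with it (log₂FC -3.36 ± 0.0608 SE, edgeR adjusted p = 4.56e-19). CNN3, the acidic calponin found in many non-muscle cells, had 279, 271, and 276 normalized CPM without ATRA and 254, 263, and 259 with it. Every ATRA library was lower for CNN3 as well, but the difference was small and did not pass edgeR's test (log₂FC -0.09 ± 0.0523 SE, edgeR adjusted p = 0.127), and with library size alone as the scaling it turned positive (log₂FC 0.39, edgeR adjusted p = 2.74e-06). Of the calponin counts, CNN3 took 38.004% ± 0.812 without ATRA and 88.7% ± 0.528 with ATRA (SD, n = 3 each). CNN1 took 19.4% ± 0.891 and 1.000% ± 0.103 (SD, n = 3 each).

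**Figure D4:**
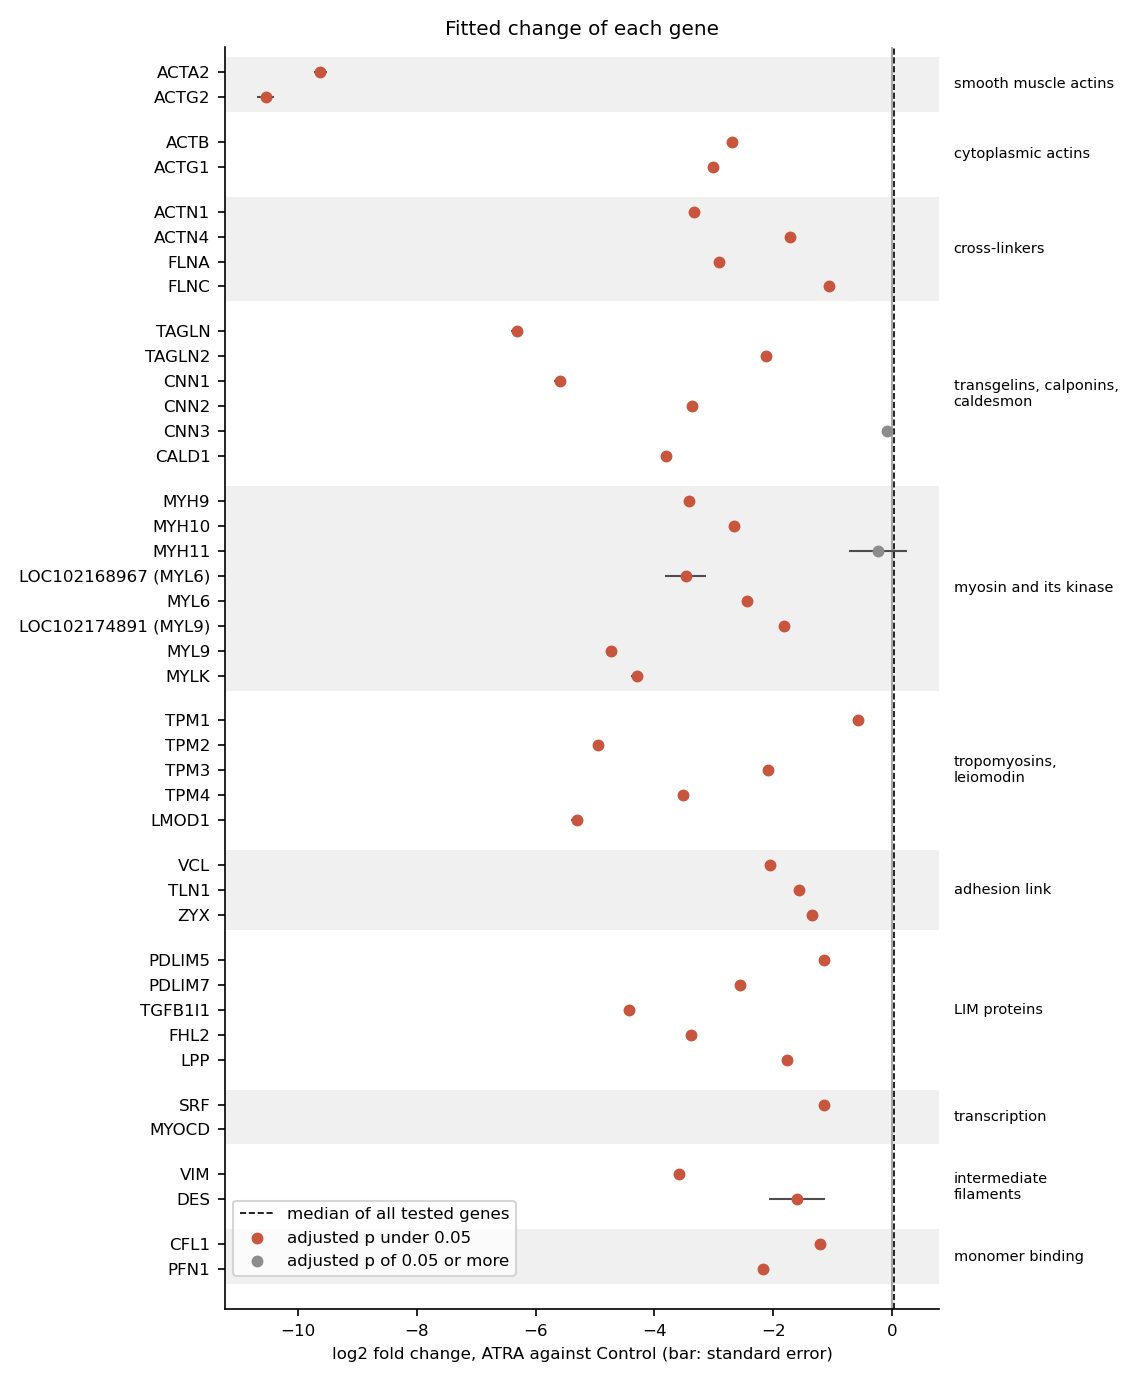
Fitted log₂FC (ATRA against control) of each of the 40 tested contractile genes, with its standard error as a bar, grouped by role, and with a dashed line at the median of all tested genes (0.04). The 38 genes with an adjusted p under 0.05 (red) run from -10.54 (ACTG2) to -0.57 (TPM1), and MYH11 and CNN3 (gray) did not pass the test.

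The myosin genes included the motor heavy chains, the light chains that stabilize and regulate them, and the kinase that activates the regulatory chain. Of the 8 entries tested, 7 were lower in the ATRA-treated group at an adjusted p under 0.05, against 38.7% of all tested genes. Their median log₂FC was -3.04. LOC102168967 and LOC102174891 are among these entries and may share reads with MYL6 and MYL9. MYH9, the heavy chain of non-muscle myosin IIA, had 5146, 5019, and 5292 normalized CPM in the control libraries and 446, 501, and 497 normalized CPM in the ATRA libraries (log₂FC -3.42 ± 0.0675 SE, edgeR adjusted p = 1.46e-18). MYH10, the heavy chain of non-muscle myosin IIB, had 1547, 1573, and 1637 normalized CPM without ATRA and 242, 255, and 258 with it (log₂FC -2.65 ± 0.0602 SE, edgeR adjusted p = 9.26e-18). Both heavy chains fell, and the share of MYH9 in the heavy chain counts was 76.5% ± 0.382 without ATRA and 65.6% ± 0.751 with ATRA (SD, n = 3 each). MYH11, the smooth muscle myosin heavy chain and the most specific marker of mature smooth muscle among these genes, had 11, 4, and 20 counts in the control libraries and 10, 17, and 13 counts in the ATRA libraries. The groups overlapped (log₂FC -0.24 ± 0.484 SE, edgeR adjusted p = 0.660), and the estimate was positive without the third control library (log₂FC 0.38) or with library size alone (log₂FC 0.24). The smooth muscle actins and calponin were therefore measured in cells in which MYH11 and MYOCD were near the limit of counting in both groups.

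Among the light chains, MYL9, the regulatory chain of smooth muscle and non-muscle myosin II, had 1247, 1076, and 1118 normalized CPM in the control libraries and 47.0, 40.3, and 41.9 normalized CPM in the ATRA libraries, a 26.6-fold difference (log₂FC -4.74 ± 0.0809 SE, edgeR adjusted p = 2.12e-19). The second entry annotated as MYL9, LOC102174891, had 1228, 1290.2, and 1154 normalized CPM without ATRA and 356, 338, and 349 with it (log₂FC -1.82 ± 0.0608 SE, edgeR adjusted p = 3.20e-15). Neither entry overlapped between the groups. Which regulatory chain LOC102174891 encodes rests on the annotation alone. MYL12A and MYL12B, close relatives of MYL9, were looked for but had no entry under those symbols, so LOC102174891 could be another regulatory chain. MYL6, the essential chain, had 1311, 1353, and 1196 normalized CPM without ATRA and 248, 202, and 259 with it (log₂FC -2.44 ± 0.0832 SE, edgeR adjusted p = 8.98e-15). LOC102168967, the MYL6-like entry, had 67, 88, and 54 counts without ATRA and 13, 6, and 6 counts with it (log₂FC -3.47 ± 0.344 SE, edgeR adjusted p = 3.35e-08). Over the alternatives run its log₂FC ran from -3.93 to -1.41. Such copies can share reads with MYL6 and MYL9, so the values of both pairs are uncertain. MYLK, the kinase that phosphorylates the regulatory chain and so starts contraction, had 187, 208, and 203 normalized CPM without ATRA and 9.49, 12.1, and 8.70 with it (log₂FC -4.30 ± 0.0966 SE, edgeR adjusted p = 2.12e-17). Its groups lay far apart, at 19.7-fold.

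Tropomyosins lie in the groove of the actin filament and decide which proteins may bind it, and each gene gives several isoforms that gene counts do not separate. TPM1, the source of the main striated and smooth muscle alpha isoforms, had 4965, 4823, and 4857 normalized CPM in the control libraries and 3363, 3102, and 3369 normalized CPM in the ATRA libraries. The groups did not overlap, but the fall was less than 2-fold (log₂FC -0.57 ± 0.0589 SE, edgeR adjusted p = 5.39e-08), and with library size alone it did not pass the test (log₂FC -0.10, edgeR adjusted p = 0.0935). TPM2, beta-tropomyosin, had 1944, 1799, and 1718 normalized CPM without ATRA and 62.9, 50.2, and 63.7 with it, a 30.9-fold difference (log₂FC -4.95 ± 0.0929 SE, edgeR adjusted p = 1.95e-18). TPM4, a cytoskeletal form, had 4765, 4872, and 4688 normalized CPM without ATRA and 412, 419.9, and 415 with it (log₂FC -3.52 ± 0.0614 SE, edgeR adjusted p = 2.81e-19). TPM3, another gene with cytoskeletal forms, had 237, 245, and 239.5 normalized CPM without ATRA and 50.1, 58.5, and 61.3 with it (log₂FC -2.09 ± 0.0693 SE, edgeR adjusted p = 2.86e-15). Within the family the changes were therefore unequal. TPM1 took 41.7% ± 0.573 of the tropomyosin counts without ATRA and 86.0% ± 0.543 with ATRA, TPM4 40.8% ± 0.751 and 10.9% ± 0.555, and TPM2 15.5% ± 0.715 and 1.54% ± 0.140 (SD, n = 3 each). LMOD1, encoding the smooth muscle leiomodin that nucleates actin filaments, had 119, 101, and 112 normalized CPM without ATRA and 2.73, 2.49, and 3.21 with it (log₂FC -5.30 ± 0.0999 SE, edgeR adjusted p = 7.91e-19).

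The 4 cross-linkers, which bundle filaments or tie them into networks, were lower by factors between 2.10 and 10.1. ACTN1, the alpha-actinin of stress fibers and focal adhesions, had 2258, 2103, and 2332 normalized CPM without ATRA and 223, 226, and 218 with it (log₂FC -3.33 ± 0.0640 SE, edgeR adjusted p = 1.01e-18). ACTN4, its non-muscle relative, had 1718, 1532, and 1657 normalized CPM without ATRA and 501, 492, and 503 with it (log₂FC -1.71 ± 0.0605 SE, edgeR adjusted p = 7.15e-15). Both actinins fell without overlap, and ACTN1 took 57.7% ± 0.853 of the counts of the pair without ATRA and 30.8% ± 0.615 with ATRA (SD, n = 3 each). FLNA, the widely expressed filamin, had 7886, 7249, and 7814 normalized CPM without ATRA and 985, 1012, and 1052 with it (log₂FC -2.91 ± 0.0643 SE, edgeR adjusted p = 6.84e-18). FLNC, the filamin of striated muscle that is also found in some fibroblasts, had 1491, 1404, and 1474 normalized CPM without ATRA and 660.3, 703, and 719 with it (log₂FC -1.07 ± 0.0587 SE, edgeR adjusted p = 6.00e-12). Both filamins fell without overlap, and the share of FLNA in the counts of the 2 filamins was 84.0% ± 0.196 without ATRA and 59.4% ± 0.428 with it (SD, n = 3 each).

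The genes that link filaments to focal adhesions were lower as well, with a median log₂FC of -1.57 over 3 genes. VCL, encoding vinculin, which binds talin and actin at the adhesion, had 950.1, 943, and 988 normalized CPM without ATRA and 212, 254, and 229 with it (log₂FC -2.05 ± 0.0677 SE, edgeR adjusted p = 2.59e-15). TLN1, encoding talin, the link between integrins and actin, had 1263, 1186, and 1253 normalized CPM without ATRA and 405, 412, and 433 with it (log₂FC -1.57 ± 0.0584 SE, edgeR adjusted p = 1.65e-14). ZYX, encoding zyxin, a LIM protein of stress fibers under tension, had 1566, 1186, and 1402 normalized CPM without ATRA and 576, 513, and 534 with it (log₂FC -1.36 ± 0.0825 SE, edgeR adjusted p = 4.69e-11). In none of these 3 genes did a library of one group reach the range of the other, and the control libraries of ZYX were spread more widely than those of VCL and TLN1.

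Among the LIM-domain proteins, which sit on stress fibers and adhesions and in part enter the nucleus, 5 of 5 genes were lower. At an adjusted p under 0.05, 38.7% of all tested genes were lower. TGFB1I1, encoding the adhesion protein Hic-5, had 188, 150, and 181 normalized CPM without ATRA and 7.59, 8.46, and 8.22 with it, a 21.4-fold difference (log₂FC -4.42 ± 0.0917 SE, edgeR adjusted p = 3.42e-18). FHL2, encoding a LIM-only cofactor, had 356, 343, and 339 normalized CPM without ATRA and 37.6, 30.4, and 31.2 with it (log₂FC -3.39 ± 0.0756 SE, edgeR adjusted p = 7.76e-18). PDLIM7, encoding the PDZ and LIM protein enigma, had 639, 530.2, and 580.2 normalized CPM without ATRA and 107, 92.4, and 95.9 with it (log₂FC -2.57 ± 0.0751 SE, edgeR adjusted p = 4.73e-16). These 3 genes fell by more than 5-fold. LPP, encoding the lipoma preferred partner, a relative of zyxin, had 68.0, 75.7, and 82.6 normalized CPM without ATRA and 20.2, 25.6, and 20.7 with it (log₂FC -1.77 ± 0.0926 SE, edgeR adjusted p = 5.28e-12). PDLIM5, encoding the enigma homolog, had 278, 296, and 290.4 normalized CPM without ATRA and 127, 144, and 121 with it (log₂FC -1.14 ± 0.0643 SE, edgeR adjusted p = 8.89e-12). LPP and PDLIM5 were lower by 3.40-fold and 2.20-fold, again without overlap. Of all tested genes, 39% were lower without overlap.

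The intermediate filament genes were lower too. VIM had 20127, 18422, and 18925 normalized CPM without ATRA and 1607, 1556, and 1621 with it (log₂FC -3.59 ± 0.0660 SE, edgeR adjusted p = 5.72e-19), so its level in each ATRA library was far below that in any control library. DES, encoding desmin, the intermediate filament protein of muscle, had 16, 18, and 14 counts in the control libraries and 3, 6, and 12 counts in the ATRA libraries (log₂FC -1.60 ± 0.471 SE, edgeR adjusted p = 0.00475). The groups did not overlap for DES, but the counts were few, and its log₂FC ran from -2.26 to -0.37 over the alternatives run. Of the proteins that bind actin monomers or turn filaments over, PFN1, encoding profilin, which delivers monomers for assembly, had 966, 859, and 893 normalized CPM without ATRA and 211, 186, and 208 with it (log₂FC -2.17 ± 0.0672 SE, edgeR adjusted p = 1.02e-15). CFL1, encoding cofilin, which severs filaments, had 825, 703, and 755 normalized CPM without ATRA and 341, 297, and 339.9 with it (log₂FC -1.22 ± 0.0705 SE, edgeR adjusted p = 1.24e-11). SRF itself had 92.1, 92.9, and 96.4 normalized CPM without ATRA and 43.5, 42.0, and 41.6 with it (log₂FC -1.15 ± 0.0608 SE, edgeR adjusted p = 3.52e-12). Profilin was thus lower by 4.49-fold, and cofilin and SRF by 2.33-fold and 2.21-fold. When library size alone was used, CFL1, FLNC, PDLIM5, SRF, and ZYX stayed lower but by less than 2-fold (log₂FC -0.74, -0.59, -0.66, -0.67, and -0.88).

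Genes of the same pathways outside the list were examined in 5 related lists, of which 97 of 104 genes were tested. At an adjusted p under 0.05, 73 of the 97 were lower and 15 higher, against 38.7% and 40.9% of all tested genes, and 47 were lower by more than 2-fold against 17.3%. The number higher depended on the method, at 30 with library size alone and 8 with t.test. The median log₂FC was -0.98. The related lists thus had a median nearer 0 than the contractile genes, and they included genes that rose. The medians of the 5 lists ran from -0.20 for immediate-early SRF targets and ETS cofactors to -1.62 for further adhesion and stress fiber genes.

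Further adhesion and stress fiber genes included 27 lower and 2 higher of 29 tested, against 38.7% and 40.9% of all tested genes. NEXN, encoding the actin-binding protein nexilin, was at 773, 778, and 788 normalized CPM without ATRA and 21.7, 27.5, and 26.1 with it (log₂FC -4.96 ± 0.0825 SE, edgeR adjusted p = 1.54e-19). PDLIM2, another PDZ and LIM protein, also fell (log₂FC -3.31 ± 0.117 SE, edgeR adjusted p = 1.56e-14). The gene of this list that went most in the other direction was TES, encoding testin, a LIM protein of adhesions, with 24, 39, and 14 counts in the control libraries and 534, 603, and 532 in the ATRA libraries (log₂FC 4.002 ± 0.197 SE, edgeR adjusted p = 1.17e-12). PTK2, encoding focal adhesion kinase, was slightly higher (log₂FC 0.16 ± 0.0611 SE, edgeR adjusted p = 0.0201), a call that did not hold without control library 1 or 2 (edgeR adjusted p = 0.0775 and 0.0639) or ATRA library 2 or 3 (edgeR adjusted p = 0.0550 and 0.0789).

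Of the 31 actin assembly genes, 25 were lower and 4 higher, against 38.7% and 40.9% of all tested genes, with a median log₂FC of -0.98. DIAPH3, a formin that elongates filaments, fell most among the genes named (log₂FC -4.63 ± 0.101 SE, edgeR adjusted p = 5.62e-18), followed by CORO1C, a coronin (log₂FC -2.71 ± 0.0559 SE, edgeR adjusted p = 2.83e-18), and CAP1, which recycles actin monomers (log₂FC -1.85 ± 0.0569 SE, edgeR adjusted p = 9.28e-16). TMOD1, which caps pointed ends (log₂FC 0.74 ± 0.274 SE, edgeR adjusted p = 0.0199), PFN2, the second profilin (log₂FC 0.73 ± 0.0638 SE, edgeR adjusted p = 6.10e-09), and WASL, an activator of the Arp2/3 complex (log₂FC 0.37 ± 0.0728 SE, edgeR adjusted p = 1.57e-04), were higher by less than 2-fold. The calls of TMOD1 and WASL did not hold with R's t.test (adjusted p = 0.0733 and 0.0543), that of TMOD1 did not hold without the first control or the third ATRA library (edgeR adjusted p = 0.1202 and 0.0769), and that of PFN2 held under the alternatives run. Of the 8 other myosin genes tested, 6 were lower and 1 higher, beside the same shares of all tested genes. The class I myosins MYO1C and MYO1E, which tether membranes to actin, had log₂FC values of -1.67 and -1.24. MYO10, the motor of filopodia, was higher (log₂FC 0.81 ± 0.0615 SE, edgeR adjusted p = 6.95e-10).

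Upstream of this machinery, the regulators moved in both directions. RHOA, the GTPase that sets stress fiber assembly, was lower (log₂FC -1.07 ± 0.0536 SE, edgeR adjusted p = 1.59e-12), as were its effector kinases ROCK1 (log₂FC -1.21 ± 0.0699 SE, edgeR adjusted p = 1.20e-11) and ROCK2 (log₂FC -0.48 ± 0.0614 SE, edgeR adjusted p = 1.01e-06). With library size alone, the call of ROCK2 was lost (edgeR adjusted p = 0.981), and RHOA and ROCK1 stayed lower but by less than 2-fold (log₂FC -0.59 and -0.74). The SRF coactivator MRTFA, listed under its older symbol MKL1, had 50.7, 40.7, and 45.0 normalized CPM without ATRA and 46.5, 43.5, and 44.8 with it, and the groups overlapped (log₂FC -0.02 ± 0.0781 SE, edgeR adjusted p = 0.849). The sign of this estimate turned with upper-quartile or library-size scaling and without the first control library. MRTFB, listed as MKL2, was lower (log₂FC -0.79 ± 0.103 SE, edgeR adjusted p = 1.46e-06), and by less with library size alone (log₂FC -0.31). In the list of RHOA, ROCK, and MRTF genes as a whole, 10 of 19 were lower and 4 higher, against 38.7% and 40.9% of all tested genes. PPP1R14A, encoding the smooth muscle inhibitor of myosin phosphatase, fell most among those named (log₂FC -3.65 ± 0.142 SE, edgeR adjusted p = 2.98e-14), and LIMK2, a kinase that inactivates cofilin, and RHOB, a GTPase related to RHOA, had log₂FC values of -1.53 and -1.505. PPP1R12B, a targeting subunit of myosin phosphatase, was higher (log₂FC 1.18 ± 0.0814 SE, edgeR adjusted p = 1.84e-10), as were the GTPase exchange factors ARHGEF2 and ARHGEF12 (log₂FC 0.42 and 0.21, the latter not past the threshold with t.test, adjusted p = 0.0851).

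The last list held immediate-early and ETS-linked SRF targets together with the ETS cofactors of SRF themselves. Of 10 tested, 5 were lower and 4 higher, shares near those of all tested genes (38.7% and 40.9%). The cofactors ELK1, ELK3, and ELK4 gave 3 of the 5 lower calls, and the 7 targets alone, a split made after the values were seen, had 2 lower, 4 higher, and a median log₂FC of 0.62. EGR3, IER2, and FOSB, genes induced within minutes of a stimulus, were higher, with log₂FC values of 1.44, 0.99, and 0.79, and the call of FOSB was lost with t.test (adjusted p = 0.0844). EGR2 was lower (log₂FC -5.11 ± 0.182 SE, edgeR adjusted p = 8.19e-15), as was the cofactor ELK3 (log₂FC -1.21 ± 0.0609 SE, edgeR adjusted p = 1.57e-12). MCL1, a survival gene of the BCL2 family, was slightly lower (log₂FC -0.32 ± 0.0575 SE, edgeR adjusted p = 5.39e-05), and with library size alone it was higher (log₂FC 0.16).

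**Figure D5:**
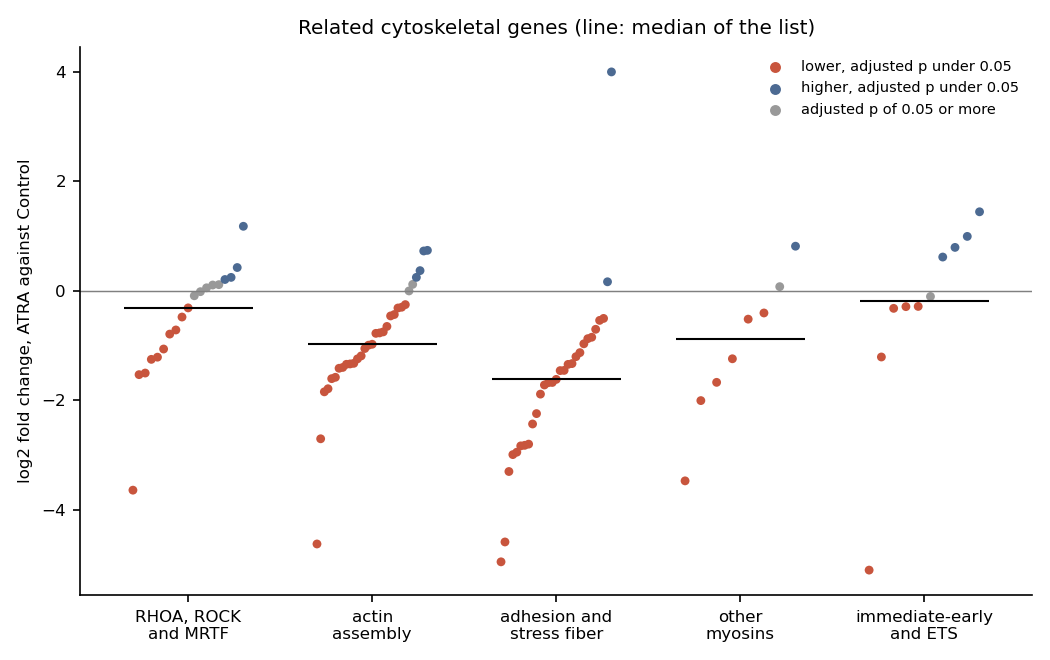
Each point is the log₂FC (ATRA against control) of 1 tested gene in 5 related lists, colored by whether it was lower, higher, or not past an adjusted p of 0.05, and the line is the median of the list. The medians lie between -1.62 (adhesion and stress fiber genes) and -0.20 (immediate-early SRF targets and ETS cofactors), and TES stands alone at 4.002.

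Markers of other cell types were read beside these results. Of 9 keratinocyte markers, 7 were listed and summed to 3.11 to 4.98 normalized CPM in the control libraries and 5.40 to 6.02 in the ATRA libraries. Within this sum KRT10 rose (log₂FC 0.82, edgeR adjusted p = 3.28e-04). KRT14 went the other way, with 20, 14, and 10 counts without ATRA and 3, 0, and 0 with it. KRT5 had 2, 7, and 3 counts without ATRA and 0 in every ATRA library. TP63, DSP, CDH1, and EPCAM had at most 5 counts in any library. The leukocyte markers (3 of 6 listed) summed to 9.15 to 12.8 normalized CPM without ATRA and 41.2 to 44.0 with it. Of 7 endothelial markers, 5 were listed, with sums of 0.903 to 1.24 and 6.19 to 9.16 normalized CPM. PECAM1 went from 0 counts in each of the control libraries to 242, 340, and 206 counts with ATRA, whereas CDH5, the defining endothelial cadherin, had at most 1 count in any library. CD14 and CD68 rose, and CD3E had at most 5 counts. Of 6 melanocyte markers, 3 were listed, and they summed to 16.1 to 17.6 and 32.2 to 39.0 normalized CPM, with TYRP1 at 1 count or fewer in every library. In that sum MITF rose (log₂FC 1.33, edgeR adjusted p = 2.00e-10) and PMEL fell (log₂FC -0.90, edgeR adjusted p = 7.61e-05). The adipocyte markers (4 of 5 listed) summed to 17.2 to 20.7 normalized CPM without ATRA and 3.36 to 3.96 with it, but CIDEC alone accounted for most of this sum, while ADIPOQ and PLIN1 rose (log₂FC 1.04 and 1.20, edgeR adjusted p = 0.0269 and 2.15e-04). The Schwann cell markers (2 of 4 listed) went from 82.8 to 88.2 normalized CPM to 38.1 to 39.8. Skeletal muscle markers (4 of 8 listed) summed to 0.216 to 0.838 normalized CPM without ATRA and 0.991 to 1.39 with it. The only one tested was TNNT3, which rose at low counts (log₂FC 1.36, edgeR adjusted p = 0.0037). It had 23, 5, and 13 counts without ATRA and 57, 50, and 36 with it. The part of these cell types in the differences described was not tested.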

How the data were processed

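Total RNA of SHF-DPCs was extracted with TRIzol, and oligo(dT) beads captured the mRNA. The authors trimmed and filtered the reads using fastp and TrimGalore. The submitters' processing notes name HISAT2, featureCounts, and DESeq2 without versions. The genome build, the annotation, and the strand and multi-mapping settings of the counting are not given in the sources used here. The authors deposited one table of raw read counts per gene for the 6 libraries, not normalized, with GO and KEGG annotation beside it. All 15944 identifiers matched the RefSeq table of goat gene symbols. No coordinates or sequences were used.

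From the deposited counts, 12588 genes passed edgeR's filterByExpr. Libraries were scaled by TMM, and genes were compared by the robust quasi-likelihood test of edgeR (two-sided, 3 libraries against 3, no covariate), with Benjamini-Hochberg adjustment over all tested genes. The study describes the t.test function of R with |log₂FC| above 1 and p under 0.05. Because the values are counts, t.test was run as an alternative, on log2(CPM + 1), and the thresholds were kept for the 2-fold calls. Normalized CPM divides a count by the total over tested genes times the TMM factor. The standard error of a log₂FC is its size over the square root of the F statistic. Pairwise chi-square per degree of freedom within groups (5.01 to 18.4) showed no library deposited more than once. edgeR's common biological coefficient of variation came to 0.0669. With 35532339 to 38012771 counts per library, counting error weighs most on the genes with few counts, namely MYH11, DES, MYOCD, ACTG2 with ATRA, and LOC102168967.

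The contractile genes and the related lists were chosen with earlier results of these data known. Values per library were given for the actins and for members with |log₂FC| above 1. Of each related list, the genes with the largest |log₂FC|, no more than 3 per direction, were named where they had an adjusted p under 0.05, a mean CPM of at least 1, and no overlap, along with MRTFA, MRTFB, RHOA, ROCK1, and ROCK2. Results for some genes that this rule names are not reported here. ACTC1, ACTA1, and the KEGG pathways were looked at after their values were seen. Alternatives were DESeq2, t.test, RLE, upper-quartile and library-size scaling, TMM without the members, other filters, a replicate block, and the omission of single libraries. The comparison with genes of at least 100 normalized CPM was chosen after seeing the data. The scripts were tested on simulated data. The counts were analysed in R 4.3.3 with edgeR 4.0.16 and with DESeq2 1.42.0, limma was version 3.58.1, and figures were drawn in Python 3.11.15 using matplotlib 3.10.9.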

Additional observations from a re-analysis of the deposited data

How the results depend on the processing

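With RLE scaling, DESeq2, no filter on low counts, TMM without the members, and the replicate block, every one of the 40 tested contractile genes kept its direction and its side of the threshold. The number of contractile genes lower at an adjusted p under 0.05 lay between 37 and 39 under the alternatives run, and stayed at 38 when any single library was left out. With library size only, 1 contractile gene (CNN3) was called higher, as were 30 related genes in place of 15, and with t.test 8 related genes were. The median log₂FC of the contractile genes was -2.60 with upper-quartile scaling, -2.19 with library size only, and -2.79 when a CPM of at least 1 in 3 libraries was required, and lay between -2.70 and -2.67 with single libraries left out. Among the genes named in the text, directions that turned were those of CNN3 (0.39 with library size only), MYH11 (0.24 with library size only and 0.38 without the third control library), MCL1 (0.16 with library size only), and MKL1 (0.0601 with upper-quartile scaling, 0.46 with library size only, and 0.0621 without the first control library). With single libraries left out, MYH11 ran from -0.66 to 0.38 and MKL1 from -0.0979 to 0.0621. With library size only, 10 of the 73 related genes called lower had a positive log₂FC, and 6 of these were called higher. The cause was not tested. CNN3 was lower by t.test (adjusted p = 0.02004).

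Control and ATRA libraries share the numbers 1 to 3. The deviations of same-numbered libraries from their group means correlated at 0.189, -0.007, and -0.159, and not every library correlated best with its own number, so the numbers were not taken to pair the samples. With the replicate number as a block, 38 contractile genes were lower, 0 were higher, and the related lists held 73 lower and 15 higher genes.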

Other observations

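The KEGG annotation deposited beside the counts places 7 of the listed genes in vascular smooth muscle contraction, 12 in focal adhesion, and 10 in regulation of the actin cytoskeleton. Among the other tested genes of vascular smooth muscle contraction, 44 of 72 fell and 18 rose (edgeR, adjusted p under 0.05; 38.7% and 40.9% of all tested genes), and 31.9% were lower by more than 2-fold against 17.3% of all tested genes. For focal adhesion, 90 of 146 others were lower and 35 higher, with 37% lower by more than 2-fold. For regulation of the actin cytoskeleton, 89 of 151 others were lower and 41 higher, with 31.1% lower by more than 2-fold. The medians of these other genes (log₂FC -0.34, -0.55, and -0.42) lay nearer 0 than the median of the contractile genes (-2.67).

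PLN, encoding phospholamban, a regulator of calcium uptake in muscle, had 5, 14, and 7 counts in the control libraries and 0 counts in each ATRA library. CSPG4, a proteoglycan of pericytes and immature mesenchymal cells, fell with a log₂FC of -4.73, NOTCH3 with -2.00, and PDGFRB with -0.44 (edgeR). VCAN, encoding the matrix proteoglycan versican that marks the dermal papilla, fell with a log₂FC of -5.66.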
